A study of Bos taurus with 20 samples.

Results

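TXNIP encodes thioredoxin-interacting protein and is described here in 20 whole bovine conceptuses, as 1 gene of the 27607 in the count files. It is listed as ENSBTAG00000020060 and was chosen by its position and with its measured levels in these same libraries already known, so its differences by shape, treatment and title code are given as description without a test. TXNIP stood highest in 1 very shallow control library and in the 6 conceptuses of a single IL6 title code, c6186, at 47.2 to 209 CPM (counts scaled to a library of 1000000). The other 13 conceptuses, 4 of them also given IL6, held 7.85 to 32.2 CPM.

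Embryos made by fertilisation in vitro received recombinant bovine interleukin 6 (IL6, a cytokine) at 100 ng/ml, or its carrier SOF-BE1, on day 5, and blastocysts were collected for transfer on day 7.5. The conceptuses later recovered were scored as ovoid or tubular, the shapes through which a ruminant conceptus passes as it elongates, and the stage or day of recovery is not given in the sources used here. There were 6 ovoid control (3 female, 3 male), 6 ovoid IL6 (4 female, 2 male), 4 tubular control (1 female, 3 male) and 4 tubular IL6 conceptuses (2 female, 2 male), each sequenced as its own library. Each title opens with a code that the labels do not explain, here called the title code: c201, c5036 and c8086 hold controls, and c6186 and c9007 hold IL6 conceptuses, so the effect of IL6 and a difference between codes cannot be fully told apart.

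TXNIP is an alpha-arrestin. It binds reduced thioredoxin and so restrains a main reducing system of the cell, and it promotes the removal of glucose transporters from the cell surface. Its transcription is strongly induced by glucose through the paired factors MondoA or ChREBP with MLX, and it also responds to cellular stress. The elongating conceptus, most of which is trophectoderm, takes up glucose and fructose from the uterine fluid.

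In the assembly ARS-UCD1.2 the gene lies on the plus strand of chromosome 3, from 21383711 to 21387865. Its 8 annotated exon intervals cover 2857 bases of a 4155-base span, and 0 annotated genes overlap it, so the lack of strand information in the counting does not mix it with an annotated antisense partner. The name comes from the locus; RefSeq's ARS-UCD2.0 table also lists a TXNIP gene on this chromosome, 4162 bases long, between HJV and POLR3GL. The files do not pair identifiers with names, so known partners of TXNIP and cell type markers could not be looked up, and the conceptus label was not checked against markers.

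Some libraries stood apart before any comparison. Ovoid control replicate 3 held 329666 counts, against 2298491 to 13940103 in the other 19 libraries. Its median Spearman correlation with the other libraries across genes was 0.625, against 0.876 to 0.970, and mitochondrial genes took 0.514% of its counts, against 1.37% to 3.67%. The c6186 libraries held 2298491 to 6262473 counts, while the 13 others held 5197824 to 13940103. The median Spearman correlation of a library with the others was 0.876 to 0.951 in c6186 and 0.950 to 0.970 in the 13 others. Most c6186 libraries were thus less like the rest than any of those 13. The relation of this likeness to the TXNIP level was not tested. These are whole-conceptus samples, in which fewer cells of a type and less RNA per cell cannot be told apart.

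Ovoid controls had a low and narrow level of TXNIP apart from that shallow library. Replicates 1, 2, 4, 5 and 6 held 84, 155, 125, 195 and 122 TXNIP counts, or 10.1, 14.8, 25.8, 13.8 and 13.1 CPM. Replicate 3 held 292 counts, which its small total turns into 854 CPM (95% exact Poisson interval 759 to 958, for counting error only). It lay far above each of the 5 others, and its counting error was small beside the gap. The group mean was 155 ± 342 CPM (SD, n = 6), and 15.5 ± 6.00 CPM (SD, n = 5) without replicate 3.

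Ovoid IL6 conceptuses fell into 2 separate ranges. Replicates 1 to 4, all of code c6186, held 566, 574, 444 and 1146 counts, or 124, 126, 209 and 183 CPM. Replicates 5 and 6, of code c9007, held 149 and 109 counts, or 14.3 and 12.4 CPM. The first 4 lay above all 5 deeper ovoid controls and the last 2 lay within their range. The group mean of 112 ± 82.8 CPM (SD, n = 6) fell between the 2 ranges.

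Among tubular conceptuses the controls held 86, 128, 146 and 151 counts, or 8.10, 10.7, 22.3 and 13.9 CPM for replicates 1 to 4. The tubular IL6 conceptuses held 214, 661, 380 and 94 counts, or 47.2, 104.6, 32.2 and 7.85 CPM. Replicates 1 and 2 of tubular IL6, again of code c6186, were the 2 highest, and replicate 4, of code c9007, was the lowest of the 20 conceptuses. The group means were 13.8 ± 6.17 CPM for controls and 48.0 ± 41.1 CPM for IL6 (SD, n = 4 each), and the groups overlapped.

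**Figure D1:**
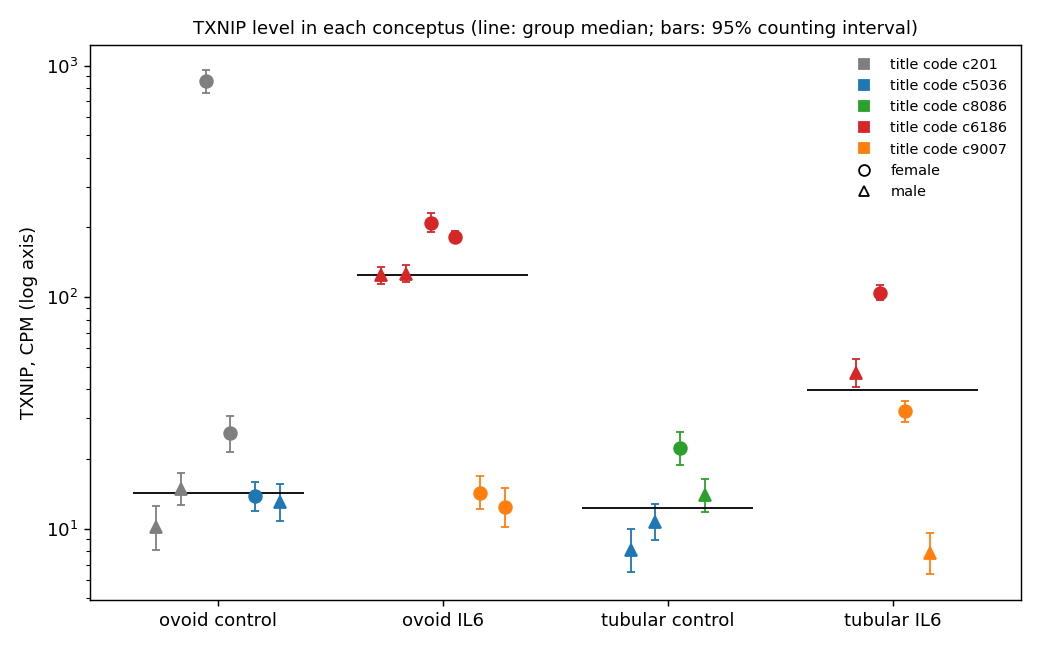
TXNIP level in CPM (log axis) for each of the 20 conceptuses, by shape and treatment, with symbols for the title code. The c6186 conceptuses sit at 47.2 to 209 CPM, ovoid control replicate 3 sits alone at 854 CPM, and the other 13 sit at 7.85 to 32.2 CPM.

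The fold changes by treatment and shape had wide errors and are given as description without a test. Each edgeR SE in this report was derived from the estimate and its quasi-likelihood F statistic. IL6 minus control was 0.32 ± 1.07 (log2 fold change ± SE, edgeR) in ovoid conceptuses, where 0% of 14875 genes were called by edgeR at a Benjamini-Hochberg adjusted p under 0.05. In tubular conceptuses IL6 minus control was 1.31 ± 1.23, with 0% of genes called. Tubular minus ovoid was -2.36 ± 1.31 in controls and -1.37 ± 1.13 under IL6, each with 0% of genes called. In the order given, 1241, 374, 244 and 417 genes had an edgeR p under 0.05 before adjustment, and DESeq2 called 86, 0, 0 and 0 genes.

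Single libraries and codes set the ovoid values. Without ovoid control replicate 3, IL6 minus control in ovoid conceptuses was 2.74, and tubular minus ovoid in controls was -0.11. With code c6186 left out, IL6 minus control was -3.84 in ovoid and -0.65 in tubular conceptuses, and tubular minus ovoid under IL6 was 1.93. Tubular IL6 minus control was 0.60 without tubular IL6 replicate 1 alone. With c6186 and ovoid control replicate 3 both left out, the 2 IL6 contrasts were -0.81 and 0.11. The tubular value then lay near 0, and the ovoid value had the opposite sign to that with c6186 in.

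TXNIP levels differed by title code. The 6 conceptuses of c6186 averaged 132 ± 57.6 CPM (SD, n = 6), with a median of 125 CPM. Code c9007, which had the same IL6 treatment, averaged 16.7 ± 10.7 CPM (SD, n = 4). The control codes averaged 11.4 ± 2.57 CPM (SD, n = 4) for c5036, 18.1 ± 5.92 CPM (SD, n = 2) for c8086, and 226 ± 419 CPM (SD, n = 4) for c201. Code c201 fell to 16.9 ± 8.03 CPM (SD, n = 3) without ovoid control replicate 3.

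Over the 19 libraries with more than 1000000 counts, c6186 exceeded c9007 by 2.98 ± 0.52 in mean log2 CPM (± SE), a 7.89-fold difference, from 6.88 ± 0.78 against 3.90 ± 0.83 (SD, n = 6 and 4). It exceeded the 9 controls by 3.05 ± 0.36, or 8.28-fold. Code c9007 differed from those controls by 0.07 ± 0.45, or 1.05-fold. These SE treat the conceptuses of a code as independent, and the differences are description without a test. All 6 of c6186 lay above all 13 others, an arrangement that 249 of 14738 genes (1.69%) shared. TXNIP was chosen with that pattern known, so the share is background only.

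Within a code the 2 shapes could be set side by side in c6186, c5036 and c9007. In c6186 the ovoid conceptuses held 161 ± 42.4 CPM (SD, n = 4), all above the 47.2 and 104.6 CPM of its tubular pair. In c5036 the ovoid mean was 13.4 CPM and the tubular mean 9.42 CPM, with 2 conceptuses each. In c9007 the means had the opposite order, at 13.4 CPM for ovoid and 20.01 CPM for tubular, with 2 conceptuses each. Its tubular values, 32.2 (female) and 7.85 CPM (male), lay on either side of the ovoid 14.3 and 12.4 CPM (both female). Both tubular conceptuses of c5036 were male, so shape and sex are mixed in these 2 codes. The order of the means by shape was thus not the same in all codes.

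Per length, TXNIP changed its place among the transcripts as well. It ranked 1252 to 5726 of 27607 genes in the c6186 conceptuses and 7249 to 11477 in the other 13. On a per-length scale (TPM, transcripts scaled to a total of 1000000), c6186 held 34.6 to 127 and the others 5.77 to 23.7. In ovoid control replicate 3 it ranked 244, at 409 TPM.

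Compared with other genes, TXNIP was among the more variable. Its log2 CPM had an SD of 1.58 over the 19 libraries, against a median of 0.49 over 14738 genes, and 97.3% of genes were at or below it. Title code took 85.5% of its variance in log2 CPM over these 19 libraries, against a median of 31.0%. Treatment took 36.5%, against a median of 7.61%, and contains the code difference because codes are nested in treatment. Shape took 5.27% and sex 8.38%, against medians of 3.84% and 4.13%. These shares restate the levels that chose the gene and carry no test.

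TXNIP level fell with library depth across the pooled libraries, and codes differ in depth. Against the log2 total count over 19 libraries, TXNIP log2 CPM gave Pearson's r = -0.81 (100000 permutations, p = 4e-05, adjusted over 3 relations 0.00012). Spearman's rho was -0.733 (permutation p = 0.00046, adjusted 0.00138). Without the 2 libraries farthest from the median depth, r was -0.72 (permutation p = 0.00119). Within c6186 it was -0.367 (n = 6, exact permutation p = 0.381), and within the 13 others -0.399 (permutation p = 0.175), so the relation did not hold past the threshold within either set.

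With ovoid control replicate 3 set aside, the shallowest libraries outside c6186 had less TXNIP than c6186 libraries of near depth. Ovoid control replicate 4 had 5197824 counts and 25.8 CPM, and tubular control replicate 3 had 6997220 counts and 22.3 CPM. These were also the highest of the remaining controls in TXNIP, the direction of the pooled relation to depth. In contrast, tubular IL6 replicate 3, of code c9007, had 11248373 counts and 32.2 CPM. The c6186 libraries of 4545473 to 6262473 counts had 47.2 to 183 CPM. That depth range holds ovoid control replicate 4 but not tubular control replicate 3. Whether depth had a part in the level of c6186 was not tested.

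**Figure D2:**
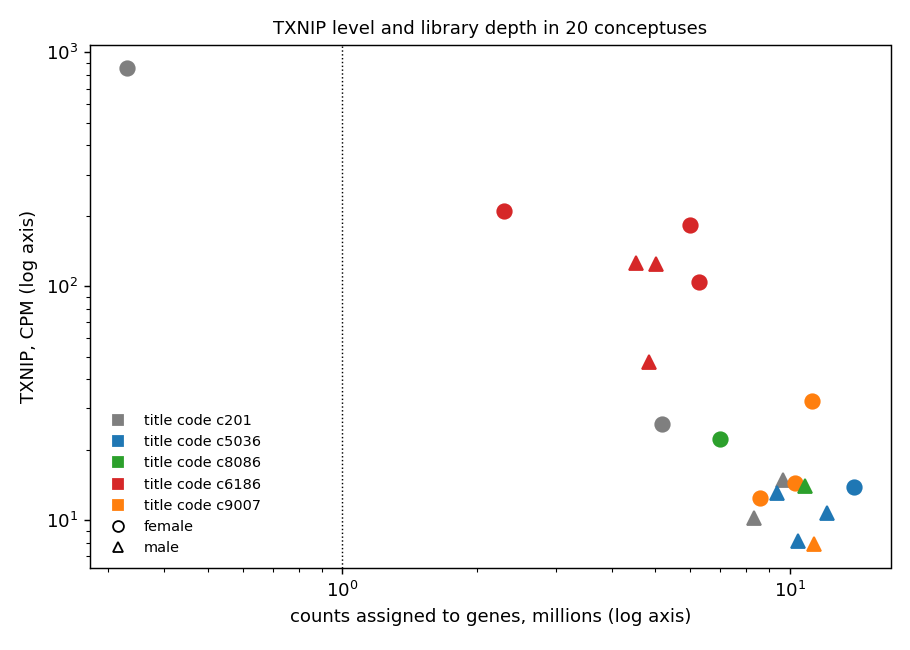
TXNIP level in CPM (log axis) against total gene counts (log axis), 1 point per conceptus, with symbols for the title code. The c6186 points lie at 47.2 to 209 CPM and 2298491 to 6262473 counts, and the 13 others at lower levels and mostly higher totals.

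The number of genes detected and the mitochondrial share of counts moved less with TXNIP than depth did. Against the number of genes detected, r was -0.590 and rho -0.542 over 19 libraries (permutation p = 0.00808 and 0.0185, adjusted 0.0121 and 0.0278). Without the 2 farthest libraries r was -0.470 (permutation p = 0.0563), so it no longer passed the threshold without them. Within c6186 r was 0.201, and within the 13 others -0.349. Against the mitochondrial share of counts, r was 0.378 and rho 0.419 (permutation p = 0.111 and 0.0771), with 0.364 without the 2 farthest, 0.0584 within c6186 and 0.119 within the 13 others.

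Sex was not used in choosing the gene and was tested. Females averaged 147 ± 259 CPM (SD, n = 10) and males 37.6 ± 47.5 CPM (SD, n = 10), and the sexes overlapped widely. Without ovoid control replicate 3, a female, females averaged 68.6 ± 77.9 CPM (SD, n = 9). Male minus female was -1.57 ± 0.87 (log2 fold change ± SE) in edgeR over all 20 conceptuses, with a Benjamini-Hochberg adjusted p of 0.782. edgeR called 8 of 14875 genes by sex (0.0538%), and TXNIP was not among them. DESeq2 called 88 genes and gave TXNIP an adjusted p of 0.421. Without ovoid control replicate 3 the edgeR difference was -0.57, with a Benjamini-Hochberg adjusted p of 0.784.

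Conceptuses of 1 code and shape showed an order by sex, in a comparison chosen after the values were seen. There were 6 such sets with both sexes, holding 16 conceptuses and 12 female-male pairs, and the female was higher in 12 of 12 pairs. The mean difference, male minus female, was -1.35 in log2 CPM. Without ovoid control replicate 3 the female was higher in 10 of 10 pairs, with a mean difference of -0.93. No p is given for the order in pairs, because the order itself prompted the comparison.

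The size of that order varied between sets. In ovoid c5036 the female held 13.8 and the male 13.1 CPM, a gap within counting error, whereas in tubular c9007 they held 32.2 and 7.85 CPM. In tubular c6186 the female held 104.6 and the male 47.2 CPM. In ovoid c6186 the 2 females held 209 and 183 CPM and the 2 males 124 and 126 CPM. Pairs share conceptuses, and 58 of 14875 genes (0.39%) had the female higher in all 12, while 41 had the male higher in all 12. Without the shallow library these numbers were 113 (0.76%) and 72. With title code and shape as terms and without the shallow library, edgeR gave -0.78 for male minus female, with a Benjamini-Hochberg adjusted p of 0.313. That fit was not planned in advance and addresses the same order, so its p is description only.

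**Figure D3:**
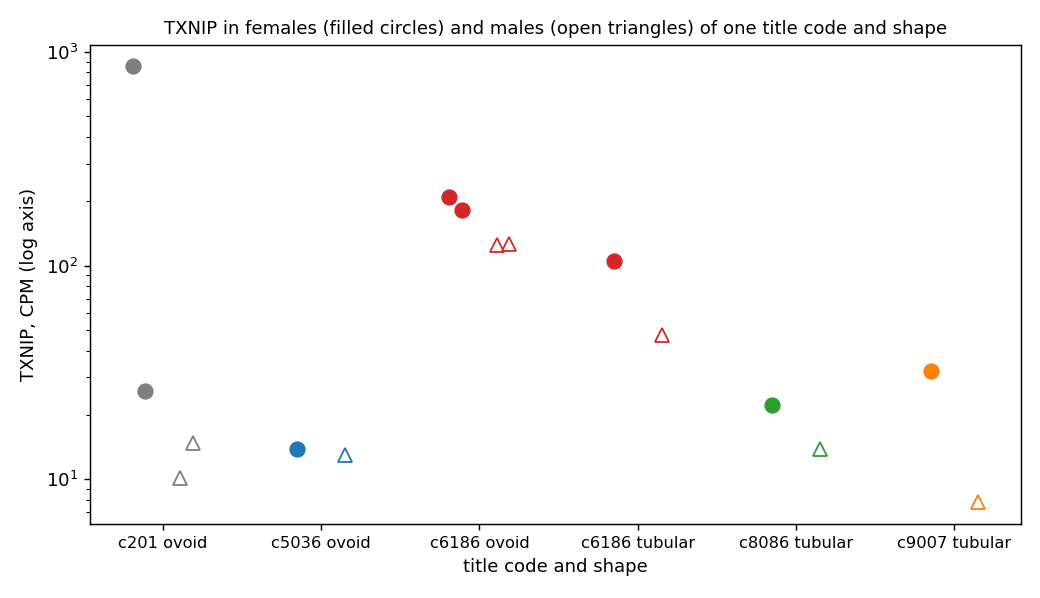
TXNIP level in CPM (log axis) of females and males within each title code and shape that holds both sexes, 1 point per conceptus. In each of the 6 sets every female lies above every male. The pair in ovoid c5036 is the closest, at 13.8 and 13.1 CPM, and the top point of ovoid c201, at 854 CPM, is the shallow ovoid control replicate 3.

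Genes that rose or fell with TXNIP were sought over the 19 libraries with more than 1000000 counts, by the slope of each gene on TXNIP log2 CPM in edgeR. Of 14737 other genes, 2123 rose (14.4%) and 1847 fell (12.5%) at a Benjamini-Hochberg adjusted p under 0.05. The TXNIP level separates c6186 from the rest, so genes that differ between those libraries and the others can enter these counts for that alone. With title code as a term, edgeR called 0 genes (1624 before adjustment) and DESeq2 49. With the log2 total as a term, 265 rose and 2 fell. Within c6186 alone edgeR called 0 genes (918 before adjustment, 57 by DESeq2), and with c6186 left out also 0 (2157 before adjustment, 14 by DESeq2).

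Genes that rose had a greater median length and a lower median level than genes that fell, a description without a test. Median exon length was 2658 bases for genes that rose and 2160 for genes that fell, against 2343 for all tested. Median log2 CPM was 3.85 and 5.20, against 4.40. The share that rose was near the 14.4% of all genes in the mitochondrial genome (4 of 27, 14.8%), on chromosome X (66 of 510, 12.9%) and on chromosome 3, which carries TXNIP (137 of 809, 16.9%). The numbers that fell there were 0, 30 (5.88%) and 97 (12.0%), against 12.5% of all genes.

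Within 500 kb on either side of TXNIP, 18 genes were tested, of which 3 rose (16.7%) and 2 fell (11.1%), shares near those of all genes, with a median r of 0.039. The nearest gene downstream, ENSBTAG00000013910, lies 10924 bases away and held 0.658 to 3.77 CPM in c6186 and 1.41 to 3.30 CPM in the other 13, so the sets overlapped. The nearest upstream, ENSBTAG00000021823, had 0 to 2 counts in any library and was not tested.

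Many genes had a strong correlation with TXNIP in the pooled libraries, and fewer had one both within c6186 and within the 13 others. At r of 0.7 or above there were 950 genes pooled, 1559 within the 6 libraries of c6186 and 81 within the 13 others, and 15 passed in both sets. At r of -0.7 or below there were 838, 677 and 90, and 5 passed in both. The median size of r over all genes was 0.374 within c6186, 0.313 within the others and 0.388 pooled. The sets hold unlike numbers of libraries, and r spreads more by chance in fewer libraries. These numbers and medians are therefore not comparable between the sets. Whether more genes passed in both sets than by chance was not tested. Of the 2123 genes that rose, 1087 had a positive r in both sets, and of the 1847 that fell, 949 had a negative r in both. Over all 14737 genes, 4406 were positive and 4130 negative in both.

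**Figure D4:**
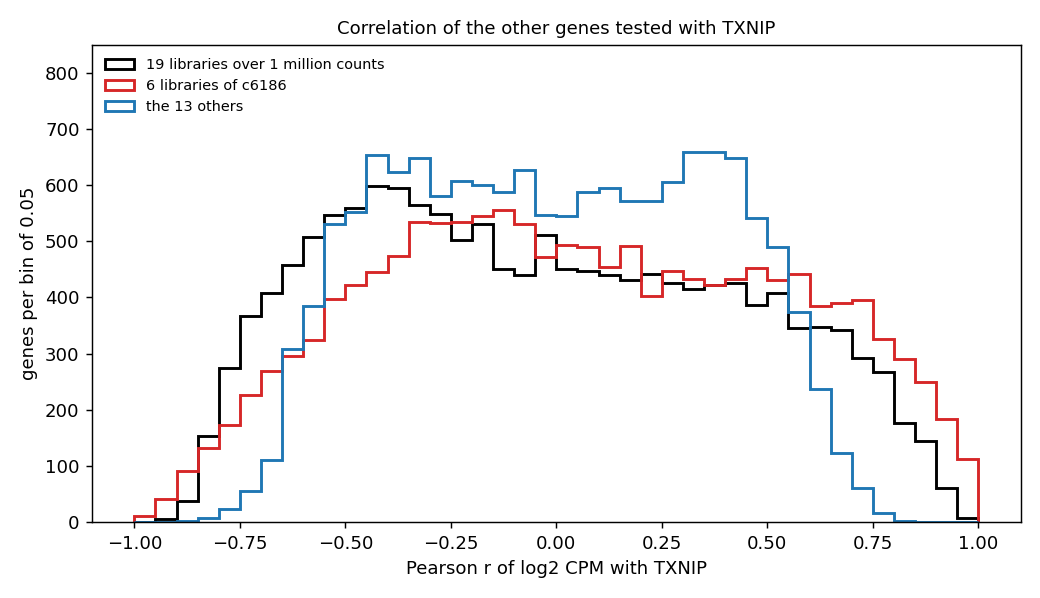
Number of genes (of 14737) by Pearson's r of their log2 CPM with TXNIP log2 CPM, for the 19 pooled libraries, the 6 of c6186 and the 13 others. Genes beyond 0.7 and -0.7 number 950 and 838 in the pooled curve, 1559 and 677 in that of c6186, and 81 and 90 in that of the 13 others. The curves rest on unlike numbers of libraries, and r spreads more by chance in fewer libraries.

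Genes were named among those called whose log2 CPM averaged 1 or more and that overlapped no other annotated gene. By the highest Pearson's r over the 19 libraries, the patterns most like that of TXNIP belonged to 2 of these genes. ENSBTAG00000013298, on chromosome 16 at 67906979 to 68081283, gave r = 0.959 and rho = 0.912. It held 4.61 to 31.9 CPM in c6186 (median 21.2) and 1.45 to 7.93 CPM in the other 13 (median 2.67). Its r was 0.962 within c6186, 0.767 within the 13 others and 0.933 without the 2 libraries farthest in TXNIP level. The gene was picked for its r in these same libraries, so its r inside each set is description and not separate support. In c6186 alone, and with c6186 left out, edgeR called 0 genes. The lowest library of this gene had 12 counts.

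ENSBTAG00000032902, on chromosome 5 at 28846446 to 28868817, gave r = 0.951 and rho = 0.761. It held 138 to 412 CPM in c6186 and 27.9 to 79.2 CPM in the other 13. Of 14738 genes, 249 (1.69%) had all 6 libraries of c6186 above the 13 others. This gene was picked for its r with TXNIP, which has that arrangement itself. The r of ENSBTAG00000032902 was 0.964 within c6186 and 0.456 within the others. The slopes of these genes on TXNIP were 0.90 ± 0.06 and 0.67 ± 0.05 (log2 per log2 ± SE). Each had an edgeR Benjamini-Hochberg adjusted p of 2.19e-08. That model had no title code term, and with title code terms edgeR called 0 genes. The genes were also chosen for their r in the same libraries, so these p are description only.

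The most opposite patterns were shallower. ENSBTAG00000004161, on chromosome 7 at 50789407 to 50831986, gave r = -0.907, with 60.0 to 81.8 CPM in c6186 and 81.9 to 112 CPM in the other 13. Its r was -0.919 within c6186 and -0.285 within the others. ENSBTAG00000011044, on the minus strand of chromosome 6 at 116825809 to 116835029, gave r = -0.902, with 88.1 to 118 CPM in c6186 and 133 to 190 CPM in the others. Its r was 0.051 within c6186, so the opposite pattern did not extend into that code, and -0.730 within the others. Their slopes were -0.14 ± 0.02 and -0.21 ± 0.03, with edgeR Benjamini-Hochberg adjusted p of 0.000289 and 4.82e-05. The limits given for the slopes of the genes above apply to these p as well.

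**Figure D5:**
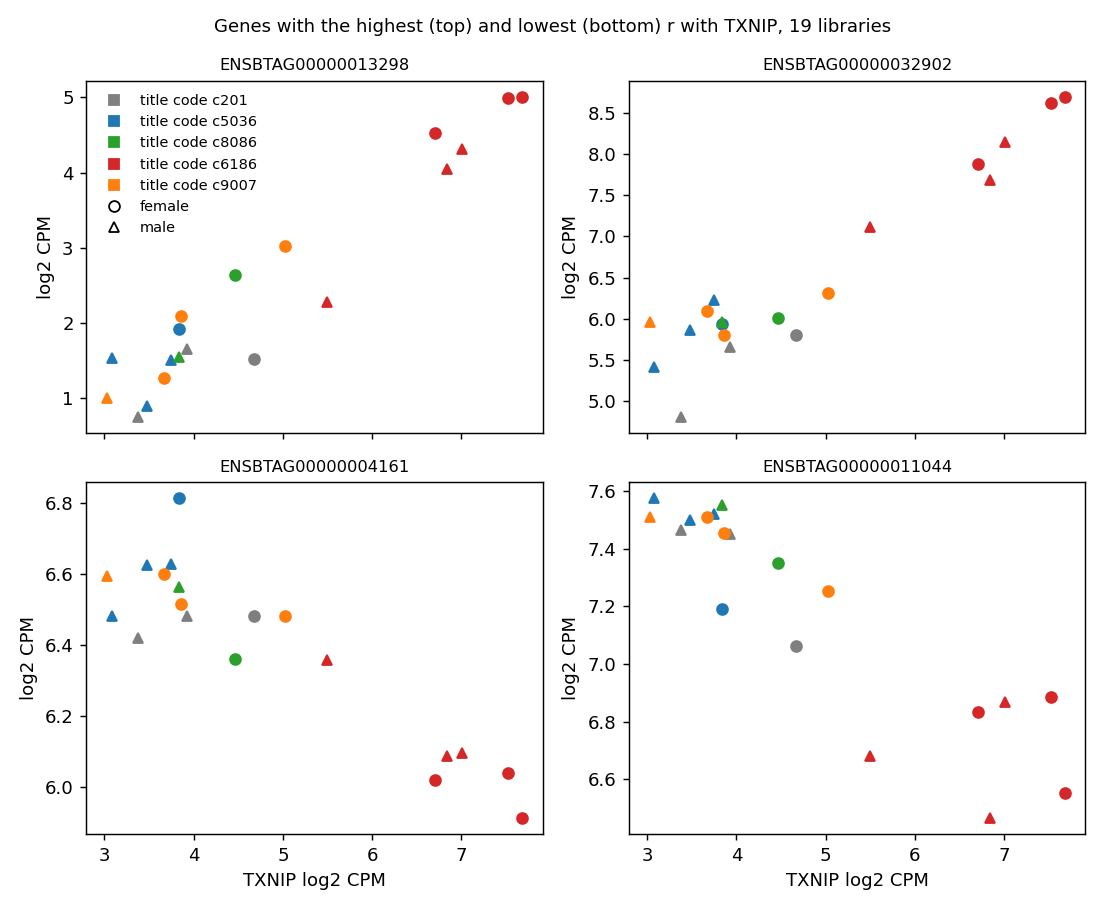
Log2 CPM of the 2 named genes most like and the 2 most opposite to TXNIP, against TXNIP log2 CPM. Each point is 1 library of more than 1000000 counts. The upper 2 genes climb with TXNIP and the lower 2 decline, with c6186 at the right of each panel.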

How the data were processed

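Per the file headers, each deposited file holds unnormalised fragment counts by Ensembl gene. The authors counted them with featureCounts 2.0.1 over exons, unstranded, with duplicates ignored, and used release 105 of the ARS-UCD1.2 annotation. Picard, SAMtools and HISAT2 appear in the submitters' processing notes with no version. Libraries were of rRNA-depleted RNA read as 150-nucleotide pairs, per the labels' protocols. Of 27607 genes, 14875 passed the edgeR 4.0.16 expression filter (14738 in the 19 libraries over 1000000 counts). CPM used TMM factors and log2 CPM a prior count of 2. Groups and sex were fitted by robust quasi-likelihood in edgeR over all 20 libraries, and slopes on TXNIP log2 CPM over 19. DESeq2 1.42.0 and limma 3.58.1 gave alternatives, with R 4.3.3, Python 3.11.15 and matplotlib 3.10.9. The tests were checked on simulated counts. Named genes were the 2 highest and 2 lowest Pearson's r among called genes whose log2 CPM averaged 1 or more and that overlapped no other annotated gene. TXNIP and every list were chosen with earlier results of these data known. The gene table at hand is of ARS-UCD2.0 and 0 identifiers matched it, so pathway and marker lists by symbol were not used. Each library is a separate conceptus; where those of a title code are alike for their own reason, p-values are too small. Counting intervals cover counting error only.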

Additional observations from a re-analysis of the deposited data

Results flagged for a closer look

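TXNIP in ovoid control replicate 3, at 854 CPM from 292 counts, stood apart from the others in each of 3 overlapping groups: ovoid controls, title code c201 and females. Its gap to the next library, divided by the range of the group, was 0.981 in ovoid controls (critical value 0.625), 0.981 in c201 (0.829) and 0.766 in females (0.466). These were the 3 that stood apart among 46 groups of values examined, and all come from the same library. The critical values set apart about 1 in 20 groups by chance where values are independent and normally distributed. CPM is skewed and the groups share libraries, so that rate need not hold here. TXNIP was also chosen with these levels known, so its gaps are description only. Ovoid control replicate 3 also had the lowest total, 329666 counts, and the lowest likeness to the other libraries. Their part in its TXNIP level was not tested.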

How the results depend on the processing

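The fold changes by treatment and shape (log2) depended on which libraries entered. Tubular minus ovoid in controls was -0.16 with title code as a random block, 0.072 without c201, -0.070 without c6186 and the shallow library, -0.094 without c9007 and the shallow library, and -2.81 to -0.11 with each conceptus left out. IL6 minus control in ovoid conceptuses was 2.93 without c201, -3.84 without c6186, 3.27 without c9007 and the shallow library, -0.33 with no sex term and -0.11 to 2.74 leaving out each conceptus. In tubular conceptuses it was -0.65 without c6186, 2.21 without c9007 and the shallow library, and 0.60 to 1.62 leaving out each conceptus. Tubular minus ovoid under IL6 was 1.93 without c6186 and 0.86 without c6186 and the shallow library. Genes called by slope on TXNIP numbered 3970, and 1542 with group and sex terms, 0 with title code terms, 267 with the log2 total, 0 without c6186, 0 in c6186 alone, and 2683 to 4634 leaving out each conceptus. The relation to the total was -0.367 within c6186 and -0.399 within the 13 others. That to genes detected was -0.470 without the 2 farthest libraries, 0.201 within c6186, -0.349 within the others and -0.677 to -0.470 leaving out each library. That to the mitochondrial share was -0.028 over all 20 conceptuses and 0.278 to 0.474 leaving out each library. Male minus female was -1.91 to -0.57 leaving out each conceptus and -3.20 (c6186) to -0.49 (c201) leaving out each title code, with no edgeR call. Causes of these shifts were not tested, except that subsets hold fewer libraries. No fit by replicate number was made. The replicate numbers used here count the samples within each group and do not come from the titles. The titles hold another number after the title code, which was not used. Depth limits the lowest genes named, down to 12 counts.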
